A study of Rattus norvegicus with 8 samples.

Results

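Genes of the cell division cycle were compared in adrenal glands of 7-day-old rat pups kept from birth in 12% O2 (hypoxic) or in room air (normoxic). There were 4 hypoxic and 4 normoxic samples. Each combined 24 glands and was hybridised to 1 biotin-labelled oligonucleotide array. The labels give neither the strain nor the sex of the pups. The capsule had been stripped from every gland before freezing, and per the labels the remaining tissue was that beneath the capsule. The series names a single comparison, hypoxic against normoxic, and asks which transcripts differ. The members were fixed by symbol as 57 genes with a known part in G1, S phase or mitosis, and each was read at its brightest probe set by the mean over the 8 pools. Of the 57, 43 had a probe set naming them alone, out of 10411 genes named on the array. They were divided by the textbook phase of their product into 8 measured genes of G1 (of 9), 10 of S phase (of 12) and 25 of mitosis (of 36). The division is approximate, since some products are not confined to 1 phase. That of Itgb3bp, placed in mitosis, stays on the centromere through the cycle. All 43 lay above the brightness limit for testing, a mean signal of 95.2. The remaining 14 members are not analysed here: the G1 kinase gene Cdk2, the S phase genes Rrm2 and Gmnn, and the mitotic genes Ccna2, Bub1, Ttk, Kif11, Tpx2, Nusap1, Prc1, Cenpf, Ndc80, Nuf2 and Hmgb2. Rrm2 and Hmgb2 each had 1 probe set that also named other genes.

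A cell enters the cycle in G1, when D-type cyclins and their kinase partners overcome inhibitors such as p21, p27 and p57. In S phase the MCM helicase opens the DNA and the sliding clamp PCNA holds the polymerase that copies it. Ribonucleotide reductase and thymidylate enzymes supply the building blocks of the DNA. In mitosis cyclin B with Cdk1 drives chromosome condensation, the kinetochore ties chromosomes to the spindle, and the anaphase-promoting complex ends the phase by marking cyclins and securin for destruction. The transcripts of many mitotic genes are held low in resting cells and rise late in the cycle, so in a tissue their level reflects how many cells are in division as well as how much each cell makes. In bulk samples fewer dividing cells and less RNA per cell cannot be told apart. The adrenal of a newborn rat still grows, and many of the cells that divide in its cortex lie near the capsule.

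The mitotic genes lay lower in the hypoxic glands, while those of G1 and S phase were centred near 0. Of the 25 measured mitotic genes, 22 had a log2 difference (hypoxic minus normoxic) below 0, with a median of -0.25 and a range from -0.95 to 0.065. Over all 11106 probe sets tested the median was -0.019, and 54.8% were below 0. Of the 10 S phase genes 6 were below 0 with a median of -0.033, and of the 8 G1 genes 2 were below 0 with a median of 0.038. These classes are described by their counts and medians, with no test of a class or of a difference between classes. In limma, with Benjamini-Hochberg adjustment over all probe sets and a threshold of 0.05, 2 members fell and 0 rose. The 2 were Pimreg and Itgb3bp, both placed in the mitotic class. By this rule 0.0630% of all probe sets were lower and 0.117% higher. At an unadjusted p under 0.05, 11 of the 25 mitotic genes were lower and 0 higher, against 4.48% of all probe sets lower and 4.16% higher. By the same measure 1 of 10 S phase genes was lower, and 0 of 8 in G1 were lower or higher. The hypoxic values of 8 mitotic genes lay wholly below the normoxic ones, as did those of 1 S phase gene, where 2.64% of all probe sets did so. No member was separated the other way, as 2.76% of all probe sets were. With arrays quantile normalized or centred on their median, 22 mitotic genes were again below 0, with medians of -0.21 and -0.22.

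**Figure D1:**
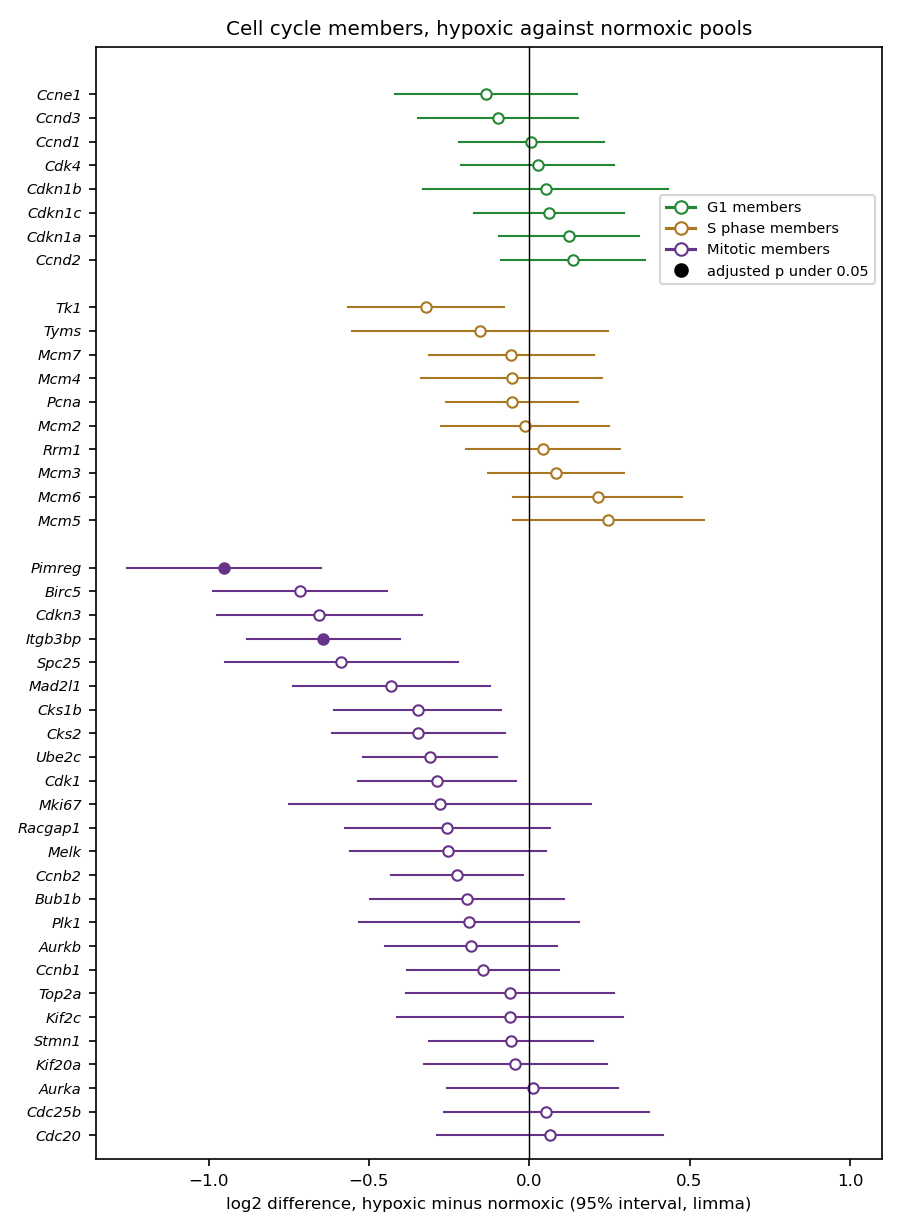
Log2 difference of the 43 measured members between 4 hypoxic and 4 normoxic pools, on the scale log2(intensity + 16), with 95% intervals from limma; green is G1, brown S phase and purple mitosis, and filled points passed an adjusted p of 0.05. The mitotic genes reach from -0.95 for Pimreg to 0.065 for Cdc20, while the intervals of all 8 G1 genes and of 9 of the 10 S phase genes include 0.

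Earlier results of these data had already named 6 of the members (Pimreg, Itgb3bp, Birc5, Cdkn3, Ube2c and Tk1), and all 6 are among those that differed most. Without them, 17 of the remaining 20 mitotic genes were below 0, with a median of -0.19. Of these 20, 6 had an unadjusted p under 0.05 in limma, 3 had no overlap between the groups, and 0 passed after adjustment over all probe sets. The S phase median without Tk1 was -0.013. The 2 calls were lost on leaving out most single pools, while their log2 differences stayed from -1.08 to -0.86 (Pimreg) and from -0.68 to -0.58 (Itgb3bp). Leaving out any of normoxic pools 1, 2 and 3 or hypoxic pools 2, 3 and 4 left 0 members past the threshold (10 to 12 with an unadjusted p under 0.05). Leaving out normoxic pool 4 left 1, Pimreg, and leaving out hypoxic pool 1 gave 3, Pimreg, Itgb3bp and Birc5. Across the 8 fits with a pool left out, between 19 and 24 of the 25 mitotic genes stayed below 0, with a median from -0.28 to -0.22.

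Pimreg encodes a nuclear protein that is abundant in dividing cells and is degraded as mitosis ends. It read 1532.8, 1380.5, 1227.1 and 948.8 in normoxic pools 1 to 4 and 645.9, 682.7, 573.3 and 664.2 in hypoxic pools 1 to 4. The lowest normoxic pool lay well above the highest hypoxic pool. Its mean fell from 1272 ± 249 to 642 ± 47.9 (SD, n = 4 in each group). On the log2 scale this was -0.95 ± 0.14 (SE), with an adjusted p of 0.0318 in limma.

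Itgb3bp encodes CENP-R, a subunit of the protein network that stays on the centromere through the cycle. It read 620.2, 547.8, 559.3 and 606.0 in normoxic pools 1 to 4 and 391.8, 401.5, 363.3 and 319.5 in hypoxic pools 1 to 4, and the groups did not overlap. Its mean fell from 583 ± 35.2 to 369 ± 36.8 (SD, n = 4 in each group). The log2 value was -0.64 ± 0.11 (SE), and limma gave an adjusted p of 0.0429. A second probe set of the gene was too dim to be tested and overlapped between the groups, with 58.5 to 120.9 in normoxic and 60.9 to 95.2 in hypoxic pools.

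Birc5, the gene of survivin, belongs to the chromosomal passenger complex that corrects faulty attachments of chromosomes to the spindle. It read 461.9, 430.4, 380.4 and 424.6 in normoxic pools 1 to 4 and 286.2, 225.2, 277.5 and 224.6 in hypoxic pools 1 to 4, again with no overlap. The log2 difference was -0.71 (interval -0.99 to -0.44), and at an adjusted p of 0.0509 in limma it missed the threshold. It passed in 3 alternatives: with 64 added in place of 16 (0.0494), with the probe sets of each gene averaged, which leaves its own values as they are (0.0405), and without hypoxic pool 1 (0.0442). Aurkb, the kinase of the same complex, read 306.3, 316.5, 377.0 and 326.8 in the normoxic and 267.4, 339.0, 268.5 and 289.6 in the hypoxic pools. Its groups overlapped, and its log2 difference of -0.18 had an interval from -0.45 to 0.088.

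The kinetochore and its checkpoint gave further low values that did not pass. Spc25, a subunit of the complex that grips spindle microtubules, read 543.8, 632.2, 377.2 and 485.3 in the normoxic and 254.2, 361.1, 372.3 and 339.8 in the hypoxic pools. The groups were separated by little, since normoxic pool 3 lay just above the highest hypoxic pool, and the log2 difference was -0.59 (adjusted p = 0.281 in limma). Mad2l1, whose product Mad2 holds back anaphase until every chromosome is attached, read 197.3, 200.6, 239.2 and 209.5 in the normoxic and 151.0, 133.1, 184.3 and 146.0 in the hypoxic pools. It too was separated between the groups, with a log2 difference of -0.43 (adjusted p = 0.381). Bub1b, the partner of Mad2 in that checkpoint, had a log2 difference of -0.19 with an interval from -0.50 to 0.11.

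Of the 10 measured genes grouped here under mitotic entry, not all of which drive it, 8 were below 0, with a median of -0.24. Cdkn3 encodes a phosphatase that acts on cyclin-dependent kinases. It read 812.6, 562.0, 612.5 and 676.2 in normoxic pools 1 to 4 and 517.9, 397.0, 341.7 and 414.3 in hypoxic pools 1 to 4. All hypoxic pools lay below all normoxic pools, and the log2 difference was -0.65 (limma, unadjusted p = 0.000797, adjusted p = 0.159). Cdk1, the mitotic kinase itself, read 987.1, 745.1, 864.1 and 934.7 in the normoxic and 779.0, 723.1, 634.2 and 738.2 in the hypoxic pools. Normoxic pool 2 overlapped the hypoxic range, and the log2 difference was -0.29 (adjusted p = 0.502).

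Among the regulatory partners of Cdk1, Ccnb2 (cyclin B2) read 702.1, 650.5, 781.8 and 688.4 in the normoxic and 598.9, 611.3, 599.6 and 589.5 in the hypoxic pools. The hypoxic pools lay within a narrow band below the normoxic ones, with a log2 difference of -0.23 (limma, adjusted p = 0.533). Ccnb1 (cyclin B1) read 698.2, 617.4, 820.8 and 717.1 in the normoxic and 581.3, 657.4, 666.9 and 663.0 in the hypoxic pools, with overlap between the groups and a log2 difference of -0.14; its dimmer probe set differed by -0.32 (adjusted p = 0.65). The small kinase-binding proteins Cks1b and Cks2 had nearly equal log2 differences, -0.35 and -0.35 (adjusted p = 0.407 and 0.430). Cks1b read 939.8, 794.4, 1063.4 and 1053.9 in the normoxic and 795.9, 688.9, 836.1 and 682.5 in the hypoxic pools. Cks2 read 1184.4, 1047.8, 1187.3 and 1131.9 in the normoxic and 948.3, 736.6, 1102.8 and 815.1 in the hypoxic pools. In both genes hypoxic pool 3 reached into the normoxic range, and in Cks1b hypoxic pool 1 also passed the lowest normoxic value by a little. A dimmer probe set of Cks1b had a log2 difference of -0.29. Cks1b and Cks2 encode closely similar proteins, and whether their probe sets share signal was not tested.

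The other kinases and phosphatases grouped under mitotic entry did not differ beyond their spread. Their log2 differences were -0.25 for Melk, -0.19 for Plk1, 0.053 for the Cdk-activating phosphatase gene Cdc25b and 0.010 for the centrosome kinase gene Aurka. The intervals of all 4 included 0, and that of Aurka ran from -0.26 to 0.28.

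**Figure D2:**
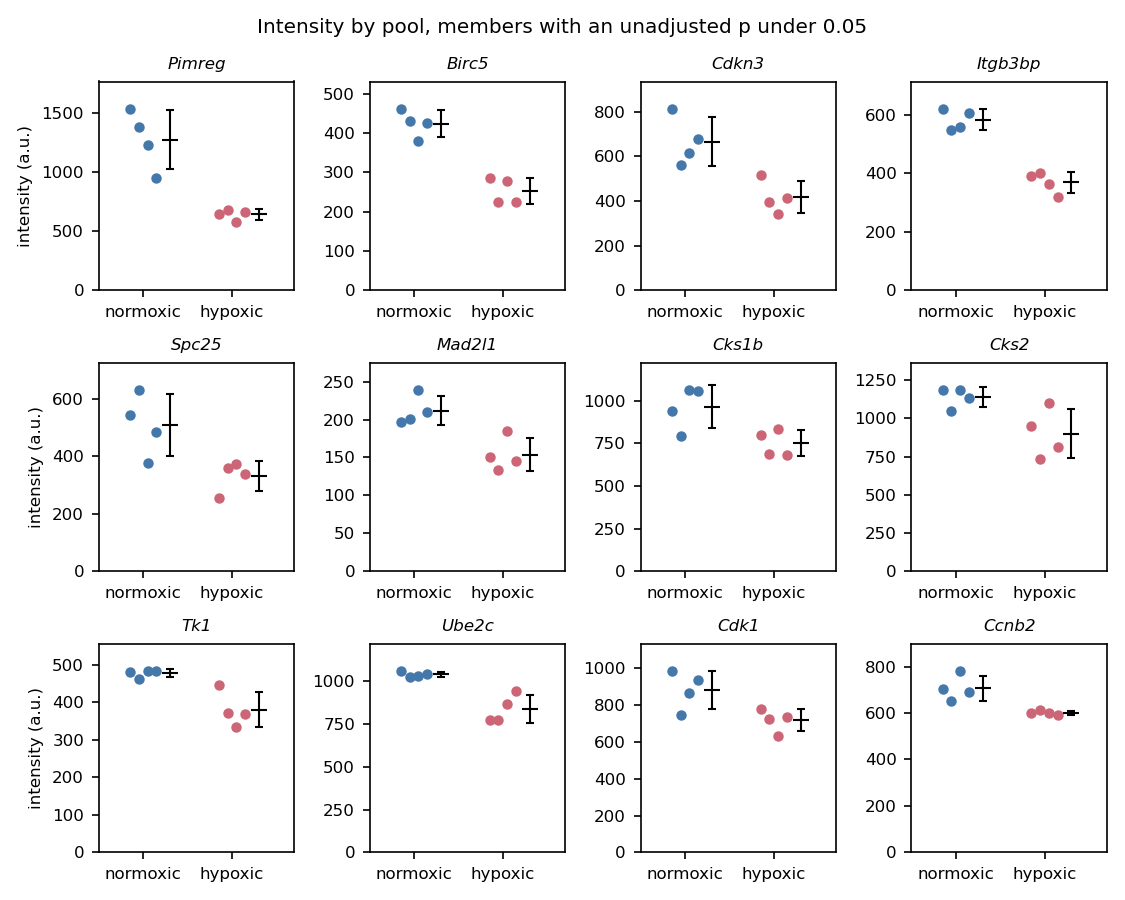
Intensity in arbitrary units of the 12 members with an unadjusted p under 0.05, in 4 normoxic (blue) and 4 hypoxic (red) pools, with group means and SD bars in black and each axis starting at 0. All 12 are lower in hypoxic pools on average, and 9 have no overlap between the groups, among them Pimreg, Birc5, Cdkn3 and Itgb3bp.

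The exit from mitosis is run by the anaphase-promoting complex. Ube2c, its ubiquitin-conjugating enzyme, read 1060.8, 1022.8, 1031.9 and 1042.8 in normoxic pools 1 to 4 and 773.6, 772.7, 866.2 and 943.0 in hypoxic pools 1 to 4. The normoxic pools were nearly alike and lay above every hypoxic pool, with a log2 difference of -0.31 (limma, adjusted p = 0.333). Cdc20, which activates the same complex, read 374.0, 358.8, 494.4 and 347.5 in the normoxic and 305.3, 461.5, 403.2 and 488.3 in the hypoxic pools. Here the groups overlapped widely and the log2 difference was 0.065, with an interval from -0.29 to 0.42. Cdc20 had 5 probe sets, and they disagreed: those tested differed by -0.041 and -0.11, and of the pair too dim to be tested 1 was lower in every hypoxic pool (55.8 to 64.4 against 74.5 to 109.3) and the other overlapped.

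Among the measured genes of the spindle, of cell separation and of the chromosome itself, all but Pimreg had intervals that included 0. The motor protein genes Kif20a and Kif2c differed by -0.043 and -0.060, and Racgap1, needed for the cleavage furrow, by -0.26 (interval -0.57 to 0.063). Stmn1, a protein that takes microtubules apart and is also made in neuronal cells, read 2420.8, 2109.3, 1963.2 and 2235.5 in the normoxic and 2540.3, 2092.2, 1760.7 and 2045.5 in the hypoxic pools. Its groups overlapped (log2 -0.056). Top2a, the topoisomerase that untangles sister chromosomes, read 837.3, 560.0, 557.5 and 607.7 in the normoxic and 626.6, 701.4, 495.1 and 615.1 in the hypoxic pools. These overlapped as well, with a log2 difference of -0.060 and an interval from -0.38 to 0.26, and its dimmer probe set differed by -0.17. Mki67, the gene of the proliferation marker Ki-67, read 609.0, 345.8, 322.2 and 391.7 in the normoxic and 483.4, 299.6, 316.8 and 259.0 in the hypoxic pools. Its log2 difference of -0.28 came with a wide interval, -0.75 to 0.19, and was -0.087 without normoxic pool 1, the highest of all pools.

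Seen by pool, the median over all mitotic genes separated the groups, and those over the S phase and G1 genes did not. For each pool the median over a class was taken of the log2 deviations of its genes from their own 8-pool means. For the 25 mitotic genes this lay between -0.0081 and 0.27 in the normoxic and between -0.14 and -0.086 in the hypoxic pools. Normoxic pool 1 was the highest and normoxic pool 2 the lowest of its group. For the S phase genes the ranges were -0.078 to 0.12 and -0.00091 to 0.11, and for the G1 genes -0.14 to 0.080 and -0.13 to 0.17, so both overlapped. For the 20 mitotic genes not named before, the normoxic pools ran from -0.056 to 0.24 and the hypoxic pools from -0.12 to -0.065, so that normoxic pool 2 lay just above the highest hypoxic pool. This separation is a description: the mitotic members include genes known from earlier results to be low in these hypoxic pools. Within the class, the 4 measured centromere and kinetochore genes separated the groups (0.24 to 0.41 in normoxic, -0.38 to -0.18 in hypoxic pools). So did the 4 measured checkpoint and exit genes (0.062 to 0.22 and -0.25 to 0.022). The former hold Itgb3bp and Birc5 and the latter Ube2c, all named by the earlier results, and neither median was taken without them. The medians of the entry, spindle and chromosome genes overlapped between the groups.

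**Figure D3:**
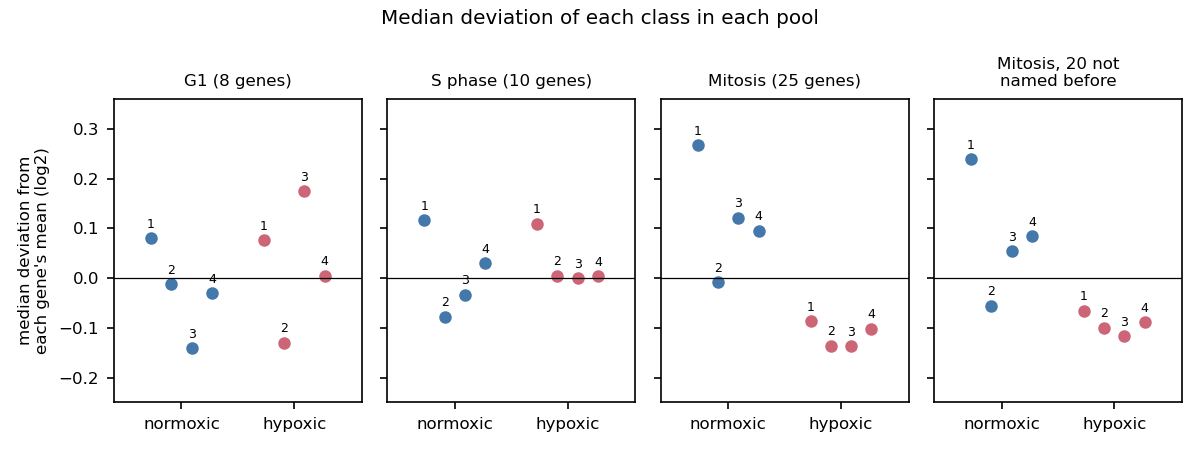
Median over each class of the genes' log2 deviation from their own mean over 8 pools, for normoxic (blue) and hypoxic (red) pools numbered 1 to 4. The mitotic panel runs from -0.0081 to 0.27 in normoxic and from -0.14 to -0.086 in hypoxic pools, while the G1 and S phase panels overlap.

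Among the S phase genes, Tk1 had the lowest log2 difference, and it is among the members that earlier results had named. Tk1 encodes thymidine kinase, which salvages thymidine for DNA synthesis and is destroyed at mitotic exit. It read 481.5, 461.9, 484.6 and 483.4 in normoxic pools 1 to 4 and 447.1, 371.3, 335.1 and 369.9 in hypoxic pools 1 to 4. The normoxic pools were tightly grouped above the hypoxic ones, with a log2 difference of -0.32 (interval -0.57 to -0.080; limma, adjusted p = 0.414). Its second probe set gave -0.32 as well, with hypoxic pool 1 inside the normoxic range. Tyms, which makes thymidylate, and Rrm1, the large subunit of ribonucleotide reductase, differed by -0.15 and 0.042, with intervals from -0.55 to 0.24 and from -0.20 to 0.28.

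The 6 subunits of the MCM helicase gave values on both sides of 0. Mcm5 and Mcm6 had the highest log2 differences of all members, 0.25 and 0.21, and neither passed (limma, adjusted p = 0.662 and 0.668). Mcm6 read 724.7, 575.6, 514.4 and 619.2 in the normoxic and 786.5, 665.8, 718.5 and 647.3 in the hypoxic pools. Hypoxic pool 1 was the highest, and the other hypoxic pools lay within the normoxic range. Mcm2 read 673.4, 490.6, 535.4 and 561.6 in the normoxic and 530.3, 580.5, 502.0 and 619.6 in the hypoxic pools, with complete overlap and a log2 difference of -0.013. Mcm3, Mcm4 and Mcm7 differed by 0.083, -0.055 and -0.056. Pcna, the clamp that holds the polymerase on DNA, read 2731.4, 2595.3, 2643.2 and 2963.0 in the normoxic and 2895.6, 2542.8, 2777.5 and 2344.3 in the hypoxic pools. Its log2 difference of -0.053 had an interval from -0.26 to 0.15. This does not reach the -0.32 of Tk1 but overlaps the interval of Tk1, and the genes were not compared by a test.

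In G1 the cyclins and their kinase gave small log2 differences at their brightest probe sets, none of which passed. Ccnd1 (cyclin D1) read 983.0, 812.0, 776.4 and 822.1 in the normoxic and 890.9, 777.9, 904.8 and 828.1 in the hypoxic pools. Its log2 difference was 0.0067, but 2 dimmer probe sets of the gene were lower, by -0.27 and by -0.37, the latter with an unadjusted p of 0.0311 (adjusted p = 0.525 in limma). The probe sets of Ccnd1 thus disagreed, and with all of them averaged its log2 difference turned to -0.21. Ccnd2 (cyclin D2) read 3926.0, 4015.6, 3477.5 and 3664.3 in the normoxic and 4700.0, 3527.2, 4358.6 and 4061.1 in the hypoxic pools. Its groups overlapped, with a log2 difference of 0.14 (interval -0.089 to 0.36). Cdk4, the kinase bound by the D cyclins, read 3055.4, 3092.5, 3324.6 and 3164.7 in the normoxic and 2736.4, 2925.4, 3792.0 and 3518.8 in the hypoxic pools. Hypoxic pools 1 and 2 were its lowest and pools 3 and 4 its highest, and the log2 difference was 0.026. Ccnd3 and Ccne1 differed by -0.10 and -0.13.

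At their brightest probe sets the inhibitors of the G1 kinases had small values above 0, and none passed. That of Cdkn1b turned below 0 with the Gapdh ratio as a covariate (-0.20) and with its probe sets averaged (-0.13). Cdkn1a (p21), a target of p53, read 458.2, 423.9, 402.8 and 445.9 in the normoxic and 478.3, 446.0, 464.9 and 502.2 in the hypoxic pools, with a log2 difference of 0.12 (interval -0.094 to 0.34). All hypoxic pools lay above the middle of the normoxic range. A second probe set of Cdkn1a was too dim to be tested and differed by 0.73. Its groups overlapped, with 14.2 to 134.8 in normoxic and 68.6 to 178.7 in hypoxic pools. Cdkn1c (p57), an imprinted gene strongly made in the adrenal cortex, read 6494.6, 5862.4, 5022.5 and 5407.1 in the normoxic and 6361.7, 5262.0, 5606.9 and 6530.7 in the hypoxic pools and differed by 0.061. Cdkn1b (p27) read 938.2, 1097.9, 706.8 and 665.4 in the normoxic and 1023.4, 734.2, 1023.3 and 728.0 in the hypoxic pools and differed by 0.051, while its dimmer probe set differed by -0.31 (adjusted p = 0.726). Pool spread was wide for Cdkn1b, and each group held high and low pools.

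Promoter sequences were examined because many mitotic genes share a known mode of control. Genes that peak from G2 to mitosis often carry a cell cycle homology region (CHR, TTTGAA), together with CCAAT boxes, through which the DREAM and MuvB complexes act, and many S phase genes carry E2F sites. The windows came from RefSeq (rat assembly GRCr8), 250 bases before to 50 after the annotated start, and 46 of the 57 members matched by symbol. Cdkn3 and Kif2c had 2 windows each, of which only the first by position was read. Both strands were searched for TTTGAA, for CCAAT, and for the E2F-like words TTTCCCGC, TTTGGCGC, TTTCGCGC, TTCCCGCC and TTGGCGGG, and matches may overlap each other. The CHR letters were found in 8 of 9 windows of mitotic members with an unadjusted p under 0.05 and in 5 of 12 of the other measured mitotic members; of the 11 such members with that p, Pimreg and Ube2c are not in this count. They were in 1 of 9 windows of measured S phase members, in 0 of 5 in G1, in 18.3% of all 33469 windows and in 740 of the 6722 windows of tested named genes. E2F-like letters were found in 7 of the 9 S phase windows, in 3 of the 21 mitotic windows, in 3.87% of all windows and in 7.57% of those of tested named genes. CCAAT was in 16 of the 21 mitotic windows and in 37.5% of all (38.2% of those of tested named genes). These are descriptions of letters in a fixed window, made with no test. The split by p was made in these same pools, and its low side holds Birc5, Cdkn3 and Itgb3bp, named by the earlier results. Whether the letters bear on the differences was not tested.

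The 250 bases before the start are given for 4 low mitotic genes and, for contrast, for Mcm7, an S phase gene with a log2 difference of -0.056. They read 5′ to 3′ along the gene, and capitals mark every match to the CHR, CCAAT or E2F-like letters on either strand. Birc5 lies at chr10:103571896-103572145 on the plus strand, Cdkn3 at chr15:22502136-22502385 on the plus strand, Spc25 at chr3:74396719-74396968 on the minus strand, Cdk1 at chr20:19265043-19265292 on the plus strand and Mcm7 at chr12:22163179-22163428 on the minus strand.
Birc5: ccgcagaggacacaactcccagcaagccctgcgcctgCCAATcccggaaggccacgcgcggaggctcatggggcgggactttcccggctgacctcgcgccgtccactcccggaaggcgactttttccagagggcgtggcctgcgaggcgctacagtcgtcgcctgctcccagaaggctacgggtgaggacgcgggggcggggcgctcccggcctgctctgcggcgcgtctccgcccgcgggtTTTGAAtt
Cdkn3: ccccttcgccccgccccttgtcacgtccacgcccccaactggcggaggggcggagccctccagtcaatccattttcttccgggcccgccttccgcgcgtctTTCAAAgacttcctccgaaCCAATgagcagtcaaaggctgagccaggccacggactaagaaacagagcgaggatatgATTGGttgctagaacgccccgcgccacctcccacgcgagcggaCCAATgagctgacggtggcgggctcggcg
Spc25: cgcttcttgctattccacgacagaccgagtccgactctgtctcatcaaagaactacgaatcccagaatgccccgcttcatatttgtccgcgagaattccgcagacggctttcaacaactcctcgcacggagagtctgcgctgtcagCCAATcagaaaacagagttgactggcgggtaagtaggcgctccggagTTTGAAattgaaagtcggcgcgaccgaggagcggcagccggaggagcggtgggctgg
Cdk1: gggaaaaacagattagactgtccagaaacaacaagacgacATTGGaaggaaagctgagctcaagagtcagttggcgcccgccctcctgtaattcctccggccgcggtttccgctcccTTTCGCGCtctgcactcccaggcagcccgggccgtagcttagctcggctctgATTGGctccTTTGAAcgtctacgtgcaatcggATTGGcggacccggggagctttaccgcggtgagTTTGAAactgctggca
Mcm7: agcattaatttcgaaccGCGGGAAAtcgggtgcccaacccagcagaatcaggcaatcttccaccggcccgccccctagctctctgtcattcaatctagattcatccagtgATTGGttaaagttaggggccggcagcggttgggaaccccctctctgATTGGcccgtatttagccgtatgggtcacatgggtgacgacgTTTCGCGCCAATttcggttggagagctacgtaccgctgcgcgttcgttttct
In Birc5 the CHR letters begin 8 bases before the annotated start, in Spc25 57 bases before it and in Cdkn3 149 bases before it, there on the opposite strand. Cdk1 has them at 72 and 16 bases before the start, with CCAAT boxes at 210, 81 and 49, and an E2F-like match at 133. Mcm7 has no CHR match and holds E2F-like letters 233 and 52 bases before its start, the latter running into a CCAAT box. Itgb3bp, which fell, has a CCAAT box and no CHR match in its window, and Cdc20 and Top2a, which overlapped between the groups, each have a CHR match. The letters are therefore not shared by all low genes nor absent from those whose groups overlap.

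**Figure D4:**
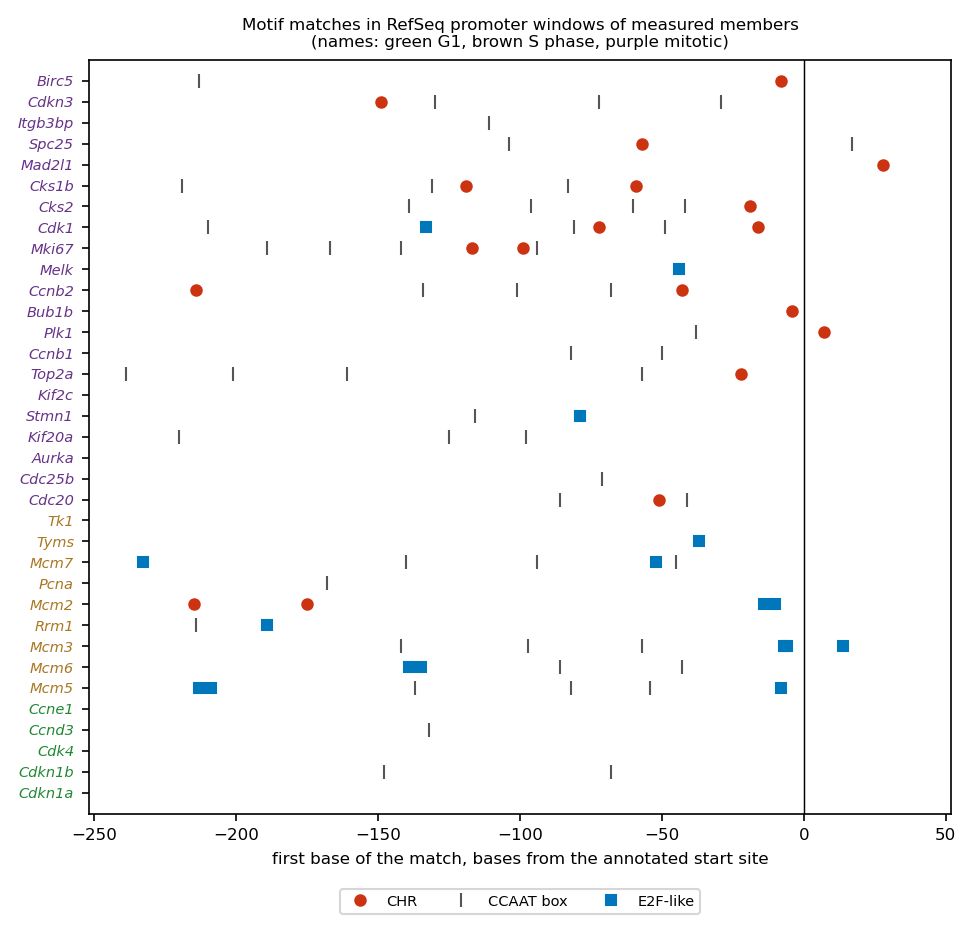
Position of CHR (red), CCAAT (grey) and E2F-like (blue) matches, in bases from the annotated start, in the RefSeq windows of 35 measured members, which are coloured by class and, within a class, ordered by log2 difference with the lowest at the top. CHR matches fall in 13 of 21 mitotic windows and in 1 of 9 S phase windows, where E2F-like matches are found in 7.

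Other genes of the cycle, listed by their textbook role, were read in the same fit. Of 193 listed, 117 had a probe set of their own and 104 were tested. Of the 104, 0 passed limma over all probe sets, while at an unadjusted p under 0.05, 12 were lower and 2 higher, against 4.48% and 4.16% of all probe sets. Among the 104 tested, 70 were below 0 (54.8% of all probe sets were), and among the 117 measured 80, with a median log2 difference of -0.10. The list of further mitotic genes had 50 tested, 7 lower and 1 higher at that p; DNA replication had 28 tested, 1 lower and 0 higher; E2F, Rb and MuvB genes had 12 tested, 1 lower and 1 higher; and other G1 regulators had 14 tested, 3 lower and 0 higher. The shares lower at that p were 14%, 3.57%, 8.33% and 21.4% in that order, the replication share being 1 gene of 28. The medians of these lists over all measured genes were -0.10, -0.088, -0.075 and -0.12. Over the tested genes they were -0.092, -0.088, -0.075 and -0.090. The list medians thus lay close together, and the contrast between mitotic and other members was not repeated among them.

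The genes with the lowest p lay on both sides of 0 in the mitotic, replication and E2F lists, while the 4 of the G1 list were below 0. Foxm1, the transcription factor that switches on mitotic genes late in the cycle, read 205.4, 153.8, 191.6 and 220.7 in the normoxic and 153.3, 131.6, 137.3 and 124.7 in the hypoxic pools, with no overlap (log2 -0.44, adjusted p = 0.396 in limma). Kif18b, a motor that shortens astral microtubules, differed by -0.56, the centromere gene Cenpi by -0.45 and Spc24, the direct partner of Spc25, by -0.35 (adjusted p from 0.253 to 0.471). The tubulin gene Tubb4b went the other way, at 3859 ± 265 and 5036 ± 344 (SD, n = 4 in each group; log2 0.38, adjusted p = 0.180). Among the G1 regulators Cdkn2c, the gene of the Cdk4 inhibitor p18, read 793.4, 785.6, 976.5 and 826.3 in the normoxic and 581.5, 599.7, 708.7 and 595.4 in the hypoxic pools. It was lower in every hypoxic pool (log2 -0.43, adjusted p = 0.214). Next to it came the stress gene Gadd45a (-0.37), Mnat1, a partner of the Cdk-activating kinase (-0.25), and the cyclin G2 gene Ccng2 (-0.23).

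In the replication list the lowest p belonged to Dut, which keeps uracil out of DNA, at 2298 ± 199.9 and 1842 ± 171 (log2 -0.32, adjusted p = 0.349 in limma). The single-strand binding gene Rpa3 differed by -0.29, the clamp loader gene Rfc4 by -0.25 and the maintenance methylase gene Dnmt1 by 0.23. In the E2F list E2f6, a repressor of the family, differed by 0.26, Myc by 0.20 and the E2F partner gene Tfdp1 by -0.16. None of these passed, with adjusted p from 0.349 to 0.703.

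**Figure D5:**
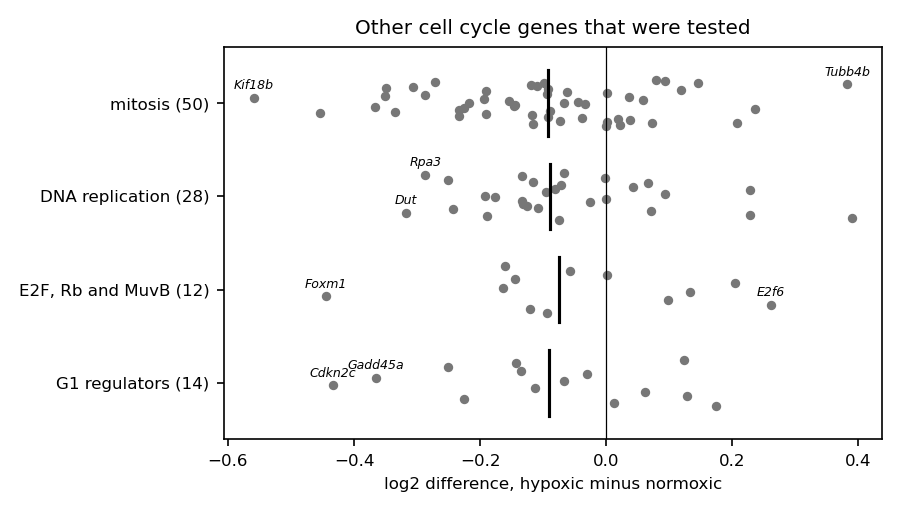
Log2 difference between hypoxic and normoxic pools of 104 tested cell cycle genes that are not members, by list, with the number of genes in brackets; points are spread vertically only to be seen, the bars are medians over the tested genes, and for each list the pair with the smallest p is labelled. The values reach from -0.56 for Kif18b to 0.39 in the replication list.

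Cell makeup and RNA quality were read beside these genes. Markers of the cortex (9 measured, mean signals from 1052 to 24120) and of chromaffin cells (12 measured) were well above the control signals, so both parts of the gland were present. Summed intensity of the cortex markers overlapped between groups, 91518 to 124700 in normoxic and 90816 to 133011 in hypoxic pools. All 12 chromaffin markers were above 0 in log2 difference (1 of them, the vesicular amine transporter gene Slc18a2, rose: 0.98, adjusted p = 0.0318), with sums of 37553 to 49862 and 43936 to 60230. At an unadjusted p under 0.05 in limma, 6 of the 12 were higher, as were 4.16% of all probe sets. The hypoxic values of 3 lay wholly above the normoxic ones, as did those of 2.76% of all probe sets. Of 13 adipose markers 12 were below 0, with sums of 4815 to 13861 and 3907 to 10302; Ucp1 of brown fat read 381.2 to 1820.3 and 92.3 to 510.7. Of 9 endothelial markers 6 were below 0 (sums of 5187 to 6080 and 4848 to 5781), and of 12 leukocyte markers 7 (sums of 4900.2 to 6216 and 4544 to 5338). Fibroblast markers (4 of 10 below 0), Schwann cell markers (4 of 6), erythroid markers (1 of 6) and kidney or liver markers (4 of 8) completed the lists. At that unadjusted p, 3 of 9 tested leukocyte markers were lower, and 1 each of the adipose, endothelial and cortex markers. The share of all probe sets lower was 4.48%. Of 4 tested erythroid markers 2 were higher, and 0 of the fibroblast, Schwann cell and kidney or liver markers were lower or higher. No marker was at 0 in mean signal, but Lep, Dio2, Ppargc1a and Cebpa of adipose tissue, the leukocyte genes Cd3e and Itgam, Foxd3 of Schwann cells, and Umod, Nphs1, Aqp2 and Apoa1 of kidney or liver lay under 46.7, the 95th percentile of the bacterial controls. With the adipose mean as a covariate the median of the mitotic genes was -0.24 and 23 of 25 were below 0, and 0 members passed limma (10 had an unadjusted p under 0.05). The Gapdh 5′ over 3′ signal ratio, a sign of RNA integrity, ran from 0.587 to 0.731 in normoxic and from 0.556 to 0.659 in hypoxic pools. The same ratio for actin ran from 0.413 to 0.744 and from 0.249 to 0.713, with means of 0.607 ± 0.143 and 0.495 ± 0.190 (SD, n = 4 in each group). Its lowest value was that of hypoxic pool 1, without which 3 members passed in place of 2 and 31 probe sets in place of 20. The part of the actin ratio in the result was not tested. With the Gapdh ratio as a covariate the mitotic median was -0.22 and 21 of 25 were below 0, and 0 members passed (9 at an unadjusted p under 0.05). The part of the other cell types in the result was not tested.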

How the data were processed

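The labels list 4 hypoxic and 4 normoxic pools as separate samples without naming litters, so p-values measure the spread between these pools, which may be partly technical. The deposited values are probe set intensity on a linear scale, and each array's mean with 2% trimmed at either end was 500.1, so the authors had scaled them to a common level. The sources used here do not name the summarising software. Such scaling hides a change shared by most transcripts. Gene names came from the platform annotation, and probe sets naming several genes were not used. The median of the bacterial control probe sets was 5.4, and array medians ran from 228.6 to 249.2.

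Values under 1 were set to 1, 16 was added and log2 taken, which understates changes of dim probe sets. Of 15866 probe sets, those with a mean log2 value below the 30th percentile were left out, which kept 11106. Groups were compared with limma 3.58.1 (lmFit, then eBayes with its trend option; R 4.3.3), with two-sided p-values adjusted over all tested probe sets. The steps were tested on simulated data. Promoter windows were read with Python 3.11.15.

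Genes given pool by pool are members with an unadjusted p under 0.05 and a fixed panel by role; of each wider list up to 4 genes with the lowest p are named. Members, classes and lists were chosen with earlier results of these data known. Alternatives changed the filter, the added constant, the normalization, the variance trend, the choice of probe set and the pools used, or added covariates or a replicate block.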

Additional observations from a re-analysis of the deposited data

Results flagged for a closer look

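In 4 of the 86 groups of 4 pools examined (43 members in each condition), 1 pool lay far from the other 3 by Dixon's criterion, which chance alone meets in about 1 group in 20. Ccnb1 was 581.3 in hypoxic pool 1 against 657.4 to 666.9 in the others. Tk1 was 461.9 in normoxic pool 2, against 481.5 to 484.6 in a group that was otherwise tight. The thymidylate synthase gene Tyms was 97.0 in normoxic pool 1 against 147.9 to 157.8, and Mcm7 was 717.2 in hypoxic pool 3 against 949.9 to 985.0. These lay in different pools, and none was in Pimreg, Itgb3bp or Birc5.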

How the results depend on the processing

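The median of the mitotic members stayed below 0 in all 18 alternatives run, from -0.28 to -0.21, while the number of genes called did not. The 20 probe sets that passed limma became 0 with no brightness filter, 0 without the variance trend, 0 with the Gapdh ratio and 2 with the adipose mean as a covariate, and ranged from 0 to 31 with 1 pool left out. The 2 members that passed became 0 in each of those 4 alternatives, 1 with arrays centred on their median (Pimreg; Itgb3bp was lost, at an adjusted p of 0.0559) and from 0 to 3 with 1 pool left out. In the fits where no member passed, 9 to 12 had an unadjusted p under 0.05. Without the filter more probe sets entered the variance estimate and the adjustment, and the log2 differences were as before; the cause was not tested for any of these. With the replicate block, 1 member passed instead of 2, Pimreg, and Itgb3bp had an adjusted p of 0.0761. Equal numbers in the labels are not known to pair the pools: deviations from the group mean correlated at 0.32, 0.0026, 0.19 and -0.043 for numbers 1 to 4 over probe sets, and hypoxic pools 2 and 4 correlated best with another number. The S phase median of -0.033 became 0.048 with the Gapdh ratio as a covariate, and the cause was not tested; that of G1 ran from -0.036 to 0.094. Wider cell cycle genes past the threshold stayed at 0 in limma throughout.

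Small differences turned in sign. With all pools kept, these were, among the 43 members and the 16 wider genes named, Cdk4 with quantile normalization (-0.021), Mcm2 with centred arrays (0.024), the Gapdh ratio (0.047) or the adipose mean (0.020), Kif2c (0.0058) and Mcm7 (0.057) with the Gapdh ratio, Aurka (-0.011), Ccnd3 (0.0045) and Kif20a (0.0097) with the adipose mean, Ccnd1 with the Gapdh ratio (-0.039) or averaged probe sets (-0.21), Cdkn1b likewise (-0.20 and -0.13), Cdc20 with the adipose mean (-0.041) or averaged probe sets (-0.028), and Pcna with the adipose mean (0.0063). With 1 pool left out the ranges crossed 0 for Ccnd1 (-0.033 to 0.078), Cdk4 (-0.053 to 0.10), Cdkn1b (-0.056 to 0.18), Mcm2 (-0.076 to 0.072), Cdc20 (-0.018 to 0.20), Pcna (-0.098 to 0.0026), Stmn1 (-0.15 to 0.026), Aurka (-0.059 to 0.066), Cdc25b (-0.067 to 0.16), Kif20a (-0.12 to 0.048), Kif2c (-0.13 to 0.066), Mcm4 (-0.12 to 0.037), Mcm7 (-0.11 to 0.048), Rrm1 (-0.032 to 0.090) and Top2a (-0.13 to 0.072). The number of arrays limits what could be called, and signals near the bacterial controls have no usable order.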

Other observations

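Cenpe, the kinetochore motor that brings chromosomes to the spindle's middle, lay under the brightness limit and was not tested. It read 100.8, 100.6, 129.6 and 92.8 in the normoxic and 55.4, 47.5, 66.8 and 31.1 in the hypoxic pools. The groups did not overlap. It was chosen for mention after its values were seen.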
